A study of Mus musculus with 6 samples.

Results

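The histone genes of mouse B cell progenitors are described here on 6 whole-transcript arrays, 3 from old and 3 from young mice. A gene was taken when its symbol names an H1, H2A, H2B, H3 or H4 histone, with the H2 genes of the major histocompatibility complex left out, and when a probe set of the array was assigned to that gene alone. This gave 47 probe sets of 45 genes among the 28940 probe sets of the deposited table. They comprise 5 linker H1 probe sets, 24 of clustered core histones (4 H2A, 10 H2B, 3 H3 and 7 H4), 6 of variants (5 H2A and 1 H3) and 12 of forms known mainly from germ cells. Another 47 histone probe sets are assigned to several genes, are no members, and are described as families. The linker genes H1f0 and H1f4 and the H3.3 gene H3f3b have no probe set of their own.

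The study compared pro-B and pre-B cells, sorted and combined, from BALB/c mice aged 24 months (old, 3 arrays) with the same cells from mice aged 2 months (young, 3 arrays). The cells were unmanipulated, the labels name no allele or agent in either group, and 100 ng of RNA entered an amplification kit before hybridisation. The series title places the comparison in the setting of inflammation in aging and selection in B cell progenitors. The labels leave it unsaid if the RNA of an array came from a single animal or from pooled animals, so the p-values below measure the spread between these 6 arrays, whose small number limits the precision.

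Histones package DNA into nucleosomes: H2A, H2B, H3 and H4 form the core, and linker H1 binds the DNA between cores. Most core and H1 genes lie in clusters, are transcribed mainly while DNA is being copied in S phase, and give mRNAs that end in a stem loop in place of a poly(A) tail. Variant histones such as H2A.Z and H3.3 come from genes outside the clusters, are made throughout the cell cycle and yield polyadenylated mRNA. Pro-B and pre-B cells pass through bursts of division while they rearrange their immunoglobulin genes, so both kinds of histone gene are in use in them.

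Upstream sequences of 3 clustered promoters and 1 variant promoter show how the classes differ in elements that the selection of genes did not use. The windows come from RefSeq (GRCm38.p6) and are read 5′ to 3′. Capitals mark 3 motifs on either strand: the octamer ATTTGCAT, a binding sequence of Oct factors long known from H2B promoters, the CCAAT box (ATTGG on the other strand), and TATAAA. The first is the 250 bases before the start of H2bc14 (chr13:21721794-21722043, plus strand). The second is the whole 179 bases between the starts of H2ac8 and H2bc8, transcribed in opposite directions (chr13:23571221-23571399, in the direction of H2bc8). The third precedes H4c4 (chr13:23581318-23581567, plus strand) and the fourth the H2A.Z gene H2az1 (chr3:137864237-137864486, plus strand).
H2bc14: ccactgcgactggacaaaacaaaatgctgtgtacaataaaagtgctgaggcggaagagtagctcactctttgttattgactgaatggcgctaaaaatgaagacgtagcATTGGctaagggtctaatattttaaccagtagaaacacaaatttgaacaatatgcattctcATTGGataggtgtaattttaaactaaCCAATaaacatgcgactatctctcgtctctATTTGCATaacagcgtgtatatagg
H2ac8 and H2bc8: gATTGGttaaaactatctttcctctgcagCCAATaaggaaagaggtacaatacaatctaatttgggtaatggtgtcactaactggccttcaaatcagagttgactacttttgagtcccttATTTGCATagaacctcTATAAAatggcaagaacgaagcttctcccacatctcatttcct
H4c4: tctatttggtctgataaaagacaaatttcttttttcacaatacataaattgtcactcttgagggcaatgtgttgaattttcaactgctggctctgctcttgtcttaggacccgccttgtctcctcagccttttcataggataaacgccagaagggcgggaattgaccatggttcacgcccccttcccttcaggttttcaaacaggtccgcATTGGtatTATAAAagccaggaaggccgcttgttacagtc
H2az1: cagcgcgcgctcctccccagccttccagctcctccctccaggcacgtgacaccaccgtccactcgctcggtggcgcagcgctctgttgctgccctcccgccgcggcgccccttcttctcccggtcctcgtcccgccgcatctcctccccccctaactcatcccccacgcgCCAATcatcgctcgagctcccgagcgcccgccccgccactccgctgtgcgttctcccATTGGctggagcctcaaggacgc

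The octamer lies in the H2bc14 window and in the interval shared by H2ac8 and H2bc8, and was not found in the H4c4 or H2az1 window. Over windows of 300 bases (250 before the start and 50 after), it was present for 3 of 4 clustered H2A genes (H2ac4, H2ac8 and H2aw) and 4 of 7 H2B genes (H2bc3, H2bc8, H2bc14 and H2bc18). It was found in 0 of 2 H3, 0 of 6 H4, 0 of 5 linker and 0 of 4 variant windows, and in 2 of 11 germ cell windows (H2ac1 and H2bc1), against 570 of all 32851 windows (1.74%). H2ac1 and H2bc1 share the same octamer, as do H2ac8 and H2bc8, so these are counts of windows and not of separate sites. TATAAA was present in 11 of 19 clustered core windows (57.9%), 3 of 5 linker windows and 0 of 4 variant windows, against 13.6% of all windows. CCAAT was present in 15 of 19 clustered core windows (78.9%), 4 of 5 linker and 4 of 4 variant windows, against 37.4%. A match describes these letters only, and 5 of the 24 clustered core genes have no window in the table used.

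Old replicates 1 and 2 stood apart from the other 4 arrays, and counts of calls, group medians and many of the named genes are therefore also given without them or without old replicate 3. Their values were compressed, with an interquartile range of 1.40 to 1.41 log2 units against 2.44 on old replicate 3 and 2.76 to 2.98 on the young arrays. A background level was set on each array from 1212 probe sets of receptors for odours and pheromones, genes of sensory neurons, as their 95th percentile there. It was 6.28 and 6.20 on old replicates 1 and 2 and 4.57 to 5.02 on the other arrays. On old replicates 1 and 2, 14.8% and 17.1% of the 23410 tested probe sets were above it, against 49.2% on old replicate 3 and 52.9% to 56.3% on the young arrays. Markers of the sorted lineage followed the same split: 5 and 6 of 9 B lineage markers were above the level on old replicates 1 and 2, with summed intensities of 2938 and 4394, and 9 of 9 on the other arrays, with sums of 8282 to 9898. Neutrophil markers were also above it, 3 and 4 of 10 on old replicates 1 and 2 (sums of 2101 and 4856) and 10 of 10 elsewhere (8096 to 10411). Plasma cell markers numbered 0 of 5 on both arrays and 4 of 5 elsewhere (sums of 166 to 208 and 438 to 455), with Prdm1 never above. Of 5 monocyte markers 0 were above it on old replicates 1 and 2 and 1 or 2 elsewhere (sums of 151 to 155 and 353 to 1006), with Cd14, Adgre1 and Fcgr1 never above. Of 5 T cell markers 0 and 1 were above it on old replicates 1 and 2 and 0 to 3 elsewhere (sums of 176 to 214 and 103 to 138), with Cd4 and Cd8a never above. Erythroid markers numbered 1 of 4 on both arrays and 2 to 4 on the others, with sums of 238 to 308 and 165 to 255. The part of these differences in the histone values was not tested, and in sorted bulk samples fewer cells of a type and less RNA per cell cannot be told apart.

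Most somatic histone probe sets had lower mean values in old than in young mice, and most germ cell forms had higher ones, but no single probe set passed the test on 6 arrays. By limma with Benjamini-Hochberg adjustment over 23410 probe sets, 0 of 47 histone probe sets were called at an adjusted p under 0.05, against 0% of all tested, and the smallest adjusted p was 0.101. At an unadjusted p under 0.05, 8 members were lower (17%, against 21.9% of all tested) and 6 were higher (12.8%, against 24.9%). All 3 old values lay below all 3 young values for 8 members (17%, against 22.9%) and above them for 10 (21.3%, against 36.1%). These shares are below the background in each direction. The median difference, old minus young in log2, was -1.20 over linker, -0.71 over clustered core, -1.75 over variant and 0.71 over germ cell probe sets, against 0.35 over all tested. Relative to each array's own median, which removes most of that 0.35, the 4 medians were -1.45, -0.97, -2.0 and 0.46. After quantile normalization they were -0.43, -0.47, -0.56 and 0.58, so that the size of the somatic medians depends on the scaling. Bright probe sets were mostly lower whatever their gene. Of all 4817 tested with a young mean above 7, 4697 were lower in mean, with a median of -1.69. The 18 somatic members that bright were all lower, with a median of -1.56, near that of all bright probe sets.

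Without old replicate 3, 25 members were lower at an adjusted p under 0.05 (53.2%, against 30.2% of all tested) and 12 were higher (25.5%, against 52.2%). Those lower were 3 of 5 linker, 16 of 24 clustered core, 5 of 6 variant and 1 of 12 germ cell probe sets, and those higher were 1 linker and 11 germ cell probe sets. The shares of all tested take in probe sets of every brightness. Among probe sets with a young mean above 7, 94.4% of somatic members were lower by over 1 log2 unit on old replicate 1, beside 89.1% of all tested. On old replicate 2 the shares were 83.3% and 84.3%. With old replicate 3 as the only old array, assumed to vary as the young arrays do, H1f5 was lower (1 of 47, against 5.24%) and H1f7 was higher (1 of 47, against 1.76%). Apart from these 2, each call without old replicate 3 rests on old replicates 1 and 2.

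**Figure D1:**
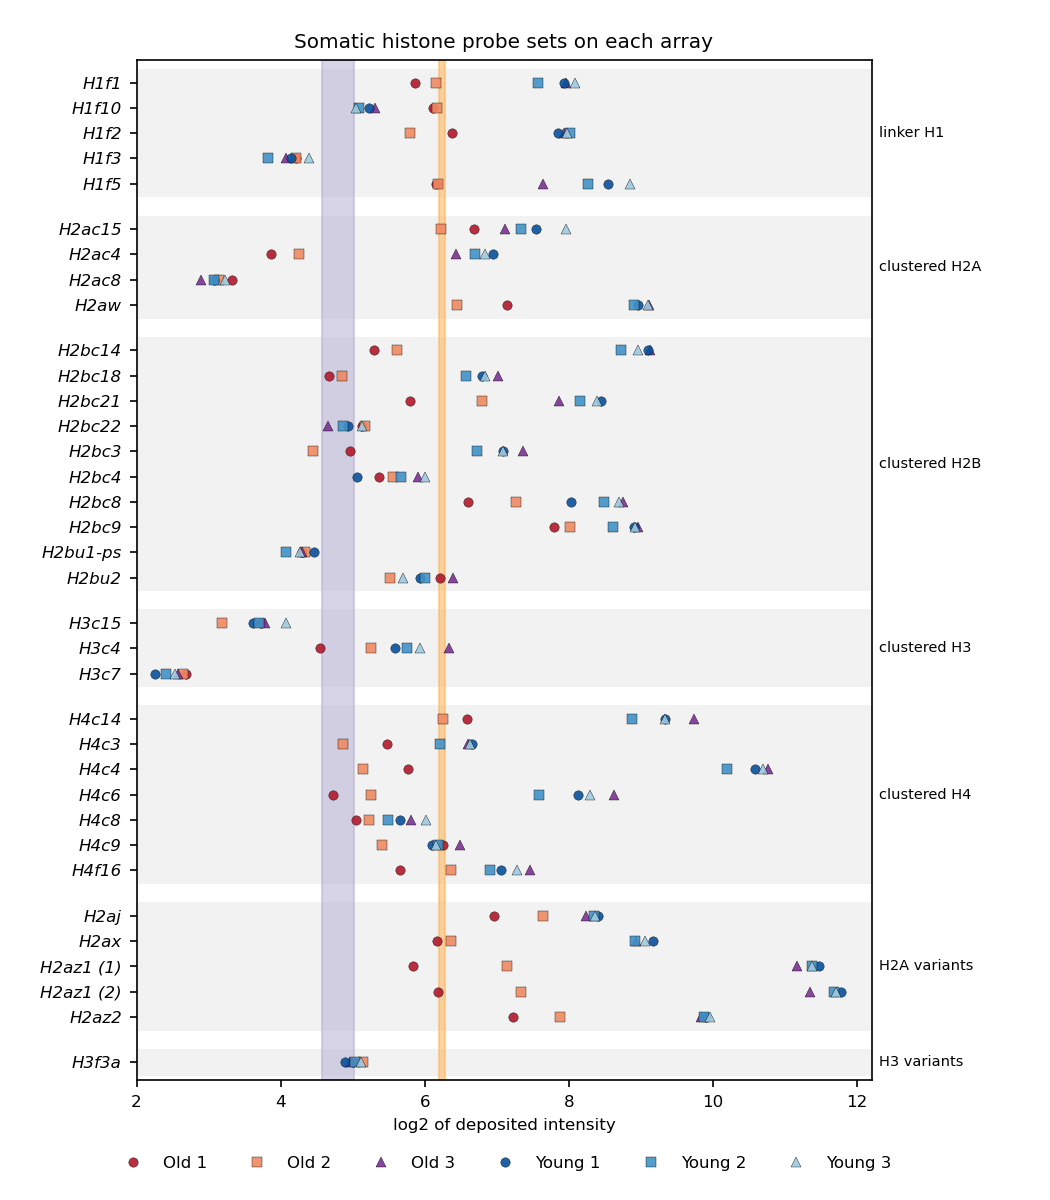
Log2 of deposited intensity (x axis) of each of the 35 somatic histone probe sets (y axis) on the 3 old and 3 young arrays, with points as single arrays and no error bars. The orange band spans the receptor background levels of old replicates 1 and 2 (6.20 to 6.28) and the purple band those of the other arrays (4.57 to 5.02). For most bright probe sets old replicate 3 lies near the young arrays while old replicates 1 and 2 lie far to the left. Of the 18 with a young mean above 7, old replicate 3 was above all 3 young arrays for 8 and below them for 7.

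Linker histones H1 fasten the DNA that enters and leaves the nucleosome. H1f5 (H1.5) read 6.16, 6.19 and 7.64 on old replicates 1 to 3 and 8.55, 8.27 and 8.85 on the young arrays. All 3 old values lay below all young values, and those of old replicates 1 and 2 were under the background level. On the deposited scale they were thus lower than the young mean by at least 2.27 and 2.35 log2 units. The difference was -1.89 ± 0.44 (SE, limma adjusted p = 0.101, n = 3 and 3). After quantile normalization it was -0.90. H1f5 was the only member lower than the young arrays on old replicate 3 by limma (-0.92 ± 0.21, adjusted p = 0.0465), and its adjusted p without that array was 7.61e-05. H1f2 (H1.2) read 6.38, 5.79 and 7.93 in old and 7.85, 8.02 and 7.98 in young mice (-1.25 ± 0.53, limma adjusted p = 0.107). Its groups overlapped, with old replicate 3 between the young values, and without that array the difference was -1.86 (limma adjusted p = 0.000245). H1f10, a linker gene outside the clusters, read 6.11, 6.17 and 5.31 against 5.23, 5.09 and 5.05. All 3 old values were higher, by 0.74 ± 0.29 (limma adjusted p = 0.101), but those of old replicates 1 and 2 were below the background level of their arrays. H1f3 was above the background level on no array.

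Clustered H2A and H2B form the dimers at the outside of the core. H2aw, which lies with H2B genes on chromosome 11, read 7.14, 6.45 and 9.11 in old and 8.96, 8.91 and 9.10 in young mice (-1.42 ± 0.64, limma adjusted p = 0.116). Old replicates 1 and 2 were far below the young arrays and old replicate 3 was just above them. H2ac15 read 6.68, 6.23 and 7.11 against 7.54, 7.33 and 7.96 (-0.94 ± 0.30, limma adjusted p = 0.101), with no overlap. After quantile normalization its difference was 0.10, the other direction. H2ac4 read 3.86, 4.25 and 6.44 against 6.95, 6.70 and 6.83 (-1.98 ± 0.64, limma adjusted p = 0.101). Without old replicate 3 the differences of H2aw, H2ac15 and H2ac4 were -2.20, -1.15 and -2.77. The groups of H2ac4 did not overlap either, and old replicates 1 and 2 were lower than the young mean by at least 0.54 and 0.63 once set at their background level.

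Among H2B genes, H2bc14, whose promoter is printed above, read 5.30, 5.62 and 9.12 in old and 9.10, 8.72 and 8.96 in young mice (-2.24 ± 0.96, limma adjusted p = 0.109). Old replicates 1 and 2 were under background and thus lower by at least 2.64 and 2.72, whereas old replicate 3 was above all young arrays. H2bc21 read 5.80, 6.80 and 7.86 against 8.44, 8.16 and 8.39 (-1.51 ± 0.50, limma adjusted p = 0.101), the 1 H2B gene whose groups did not overlap. H2bc9 read 7.79, 8.01 and 8.96 against 8.90, 8.61 and 8.92 (-0.56 ± 0.34, limma adjusted p = 0.197). It was above background on all 6 arrays, and under quantile normalization its difference was 0.91 in the other direction. Without old replicate 3 the differences of H2bc14, H2bc21 and H2bc9 were -3.46, -2.03 and -0.91. The divergent neighbours H2ac8 and H2bc8, named after their values were seen, were measured differently. H2bc8 read 6.60, 7.27 and 8.75 against 8.03, 8.49 and 8.70 (-0.87 ± 0.54, limma adjusted p = 0.206), above background on all 6 arrays. H2ac8 read 2.90 to 3.32 on the old and 3.08 to 3.23 on the young arrays and was above background on none.

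Clustered H3 and H4 form the inner tetramer. The H3 genes have few probe sets of their own: H3c4 read 4.55, 5.26 and 6.34 in old and 5.59, 5.76 and 5.94 in young mice (-0.38 ± 0.45, limma adjusted p = 0.471). Old replicate 3 was the highest of its 6 values. H3c15 (old minus young -0.22 ± 0.26) and H3c7 (0.23 ± 0.20, which was -0.02 on centred arrays) were above background on no array. All 7 H4 probe sets were above background on the 3 young arrays and on old replicate 3. H4c4 had the widest difference among clustered genes: it read 5.77, 5.14 and 10.76 against 10.58, 10.20 and 10.70 (-3.27 ± 1.38, limma adjusted p = 0.107). Old replicate 3 was the highest array, while old replicates 1 and 2 were lower than the young mean by at least 4.21 and 4.29. Without old replicate 3 the difference was -5.04 (limma adjusted p = 1.06e-05). H4c14 read 6.58, 6.25 and 9.73 against 9.34, 8.88 and 9.34 (-1.67 ± 0.88, limma adjusted p = 0.150), with the same order of arrays. H4c6, added as a further example after its values were seen, read 4.72, 5.25 and 8.63 against 8.12, 7.58 and 8.30 (-1.80 ± 0.97, limma adjusted p = 0.158).

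Because clustered histone genes have near-identical coding sequences, a probe set assigned to 1 gene may also take up RNA of its copies, and values of single clustered genes are uncertain to that extent. In the probe sets assigned to several genes, old replicates 1 and 2 again lay below the other arrays. Over 10 H3 probe sets the medians were 6.04, 5.25 and 9.11 on old replicates 1 to 3 and 9.04, 8.46 and 8.90 on the young arrays. Over 6 H4 probe sets they were 6.31, 7.18 and 11.15 against 10.79, 10.44 and 10.93. Over 7 H2B probe sets they were 5.71, 5.88 and 10.91 against 10.93, 10.61 and 10.83, and over 2 H2A probe sets 7.77, 7.21 and 10.07 against 9.80, 9.51 and 9.96. Some of these probe sets hold the same values, leaving 6 distinct H2B and 5 distinct H4 sets. Old replicate 3 was above all young arrays in 9 of 10 H3, 5 of 6 H4 and 2 of 2 H2A sets, but in 1 of 7 H2B sets. The shared sets differed from the single-gene sets in part: the shared H3 sets had differences of -2.33 to -1.84, against -0.38 to 0.23 for the 3 single-gene H3 sets. Old replicate 3 was above all young arrays in 1 of 4 single-gene H2A and 6 of 10 single-gene H2B sets.

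**Figure D2:**
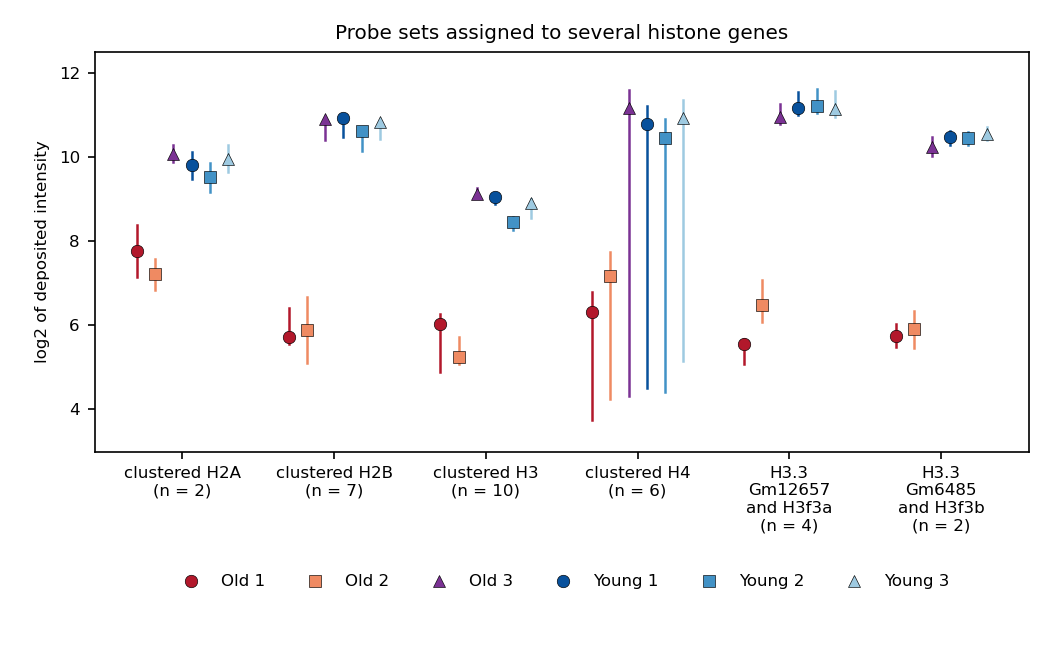
Log2 of deposited intensity (y axis) of probe sets assigned to several histone genes, by family (x axis, n probe sets), on each array; markers are medians and lines span the lowest to the highest probe set. Old replicates 1 and 2 lie below the other 4 arrays in every family shown; the long H4 lines come from 1 dim probe set.

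Variant histones of the H2A family had the widest median difference of the histone classes, -1.89 over 5 probe sets. H2az1 encodes H2A.Z, placed at the nucleosomes beside gene starts, and has 2 probe sets. The second read 6.18, 7.34 and 11.35 in old and 11.78, 11.68 and 11.71 in young mice (-3.44 ± 1.22, limma adjusted p = 0.101), and the first read 5.84, 7.14 and 11.16 against 11.47, 11.38 and 11.38 (-3.36 ± 1.24). In both, all 3 old values lay below all young ones, old replicate 3 by little. H2ax encodes H2A.X, phosphorylated around DNA breaks such as those of immunoglobulin gene rearrangement. It read 6.17, 6.36 and 8.93 against 9.17, 8.92 and 9.05 (-1.89 ± 0.71, limma adjusted p = 0.101), and old replicate 3 lay between the young values. H2az2, the second H2A.Z gene, read 7.22, 7.88 and 9.84 against 9.91, 9.87 and 9.96 (-1.60 ± 0.63, limma adjusted p = 0.102), and H2aj read 6.96, 7.64 and 8.24 against 8.40, 8.35 and 8.36 (-0.76 ± 0.34, limma adjusted p = 0.116). Without old replicate 3 the differences were -4.97 and -4.92 for H2az1, -2.78 for H2ax, -2.37 for H2az2 and -1.07 for H2aj, and with it as the only old array they were -0.38, -0.24, -0.11, -0.07 and -0.13. Young values of the H2A variants lay close together, with SDs of 0.03 to 0.12. Macroh2a1, a macroH2A gene whose symbol lies outside the selection, read 5.38, 5.73 and 8.06 against 9.17, 9.09 and 8.70 (-2.59 ± 0.68, limma adjusted p = 0.101). The related Macroh2a2 (0.02 ± 0.28) and Macroh2a3 (0.37 ± 0.24) were above background on no array.

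The probe sets for H3.3, the variant deposited outside S phase, disagreed. The 1 assigned to H3f3a alone read 5.0, 5.14 and 4.96 in old and 4.90, 5.03 and 5.11 in young mice (0.02 ± 0.20, limma adjusted p = 0.922), below background on all old arrays, and its difference was -0.23 on centred arrays. The 4 probe sets shared by H3f3a and a predicted gene had medians of 5.55, 6.49 and 10.94 in old and 11.17, 11.21 and 11.14 in young mice. A pair shared by H3f3b and another predicted gene had medians of 5.75, 5.90 and 10.24 against 10.46, 10.44 and 10.55. The shared sets thus followed the H2A variants and the single-gene set did not.

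Histones known mainly from germ cells replace the somatic forms as sperm or oocytes mature. Of 12 probe sets, 5 were above background on the 3 young arrays, 4 on old replicate 1, 2 on old replicate 2 and 3 on old replicate 3. H2al2a read 6.38, 6.33 and 5.59 in old and 5.20, 4.97 and 4.87 in young mice (1.09 ± 0.28, limma adjusted p = 0.101), with no overlap. H2ab1 has 2 probe sets with the same values, 6.47, 6.02 and 4.98 against 5.03, 5.25 and 5.06 (0.71 ± 0.39, limma adjusted p = 0.164), where old replicate 3 lay below all young arrays. H2ac1, a testis H2A, read 6.35, 6.25 and 6.36 against 5.93, 5.93 and 5.99 (0.37 ± 0.19, limma adjusted p = 0.147). H1f7, a linker of spermatids, read 5.58, 5.44 and 5.61 against 4.99, 4.84 and 4.90 (0.63 ± 0.20, limma adjusted p = 0.101). It was the 1 member higher on old replicate 3 by limma (0.70 ± 0.13, adjusted p = 0.0288), the 1 old array where it was above background. The receptor level itself was 6.28 and 6.20 on old replicates 1 and 2 and 4.57 to 4.74 on the young arrays.

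**Figure D3:**
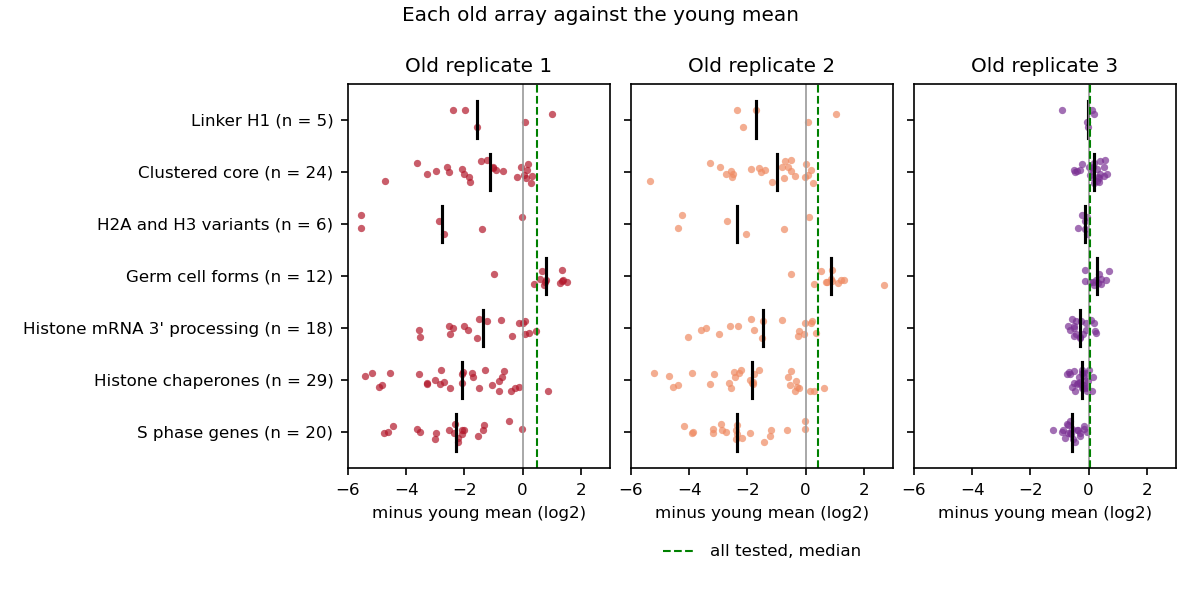
Each old array minus the mean of the 3 young arrays (x axis, log2) for the histone groups and 3 gene lists (y axis); points are probe sets, black bars are medians, and the dashed green line is the median of all tested probe sets. The clustered core median is -1.12 on old replicate 1, -0.97 on old replicate 2 and 0.19 on old replicate 3, where S phase genes have a median of -0.58.

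Old replicate 3, the old array with a value range near that of the young arrays, had most clustered core genes and the S phase genes on opposite sides of the young values, a contrast that was not tested. It was above all 3 young arrays for 14 of 24 clustered core probe sets (58.3%) and below them for 5, beside 41.7% and 31.8% of all tested. By class it was above for 5 of 7 H4 and 6 of 10 H2B probe sets, and below for 3 of 4 H2A and 4 of 5 H2A variant probe sets. It was below for 20 of 20 S phase genes, such as those of the replication helicase. The median difference from the young mean was 0.19 for clustered core probe sets, -0.13 for the H2A variants and -0.58 for the S phase genes. Of all tested probe sets with a young mean above 7, old replicate 3 was above the young arrays for 15.4% and below for 67.1%. Their median was -0.24. For the 10 clustered core probe sets that bright, old replicate 3 was above for 8 and below for 2, with a median of 0.23. This is 1 array with no replicate of its kind, and 0 clustered core probe sets were called on it alone by limma.

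The young arrays also differed among themselves in the same genes. Young replicate 2 was the lowest of the 3 for 17 of 24 clustered core (70.8%), 3 of 5 linker and 5 of 5 H2A variant probe sets, beside 30.5% of all tested. It was the lowest for 20 of 20 S phase genes. The single-gene H3 probe sets went the other way, with young replicate 2 lowest for 0 of 3 and young replicate 1 for 3 of 3. For H4, 6 of 7 probe sets were lowest there, as were 10 of 10 H3, 6 of 6 H4, 7 of 7 H2B and 2 of 2 H2A probe sets assigned to several genes. The size was small: its median distance from the mean of the other young arrays was -0.25 for clustered core, -0.42 for linker, -0.06 for variant and -0.30 for S phase genes, against 0 for all tested. Young replicate 3 lay at 0.21, 0.33 and 0.38 for clustered core, linker and S phase genes.

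**Figure D4:**
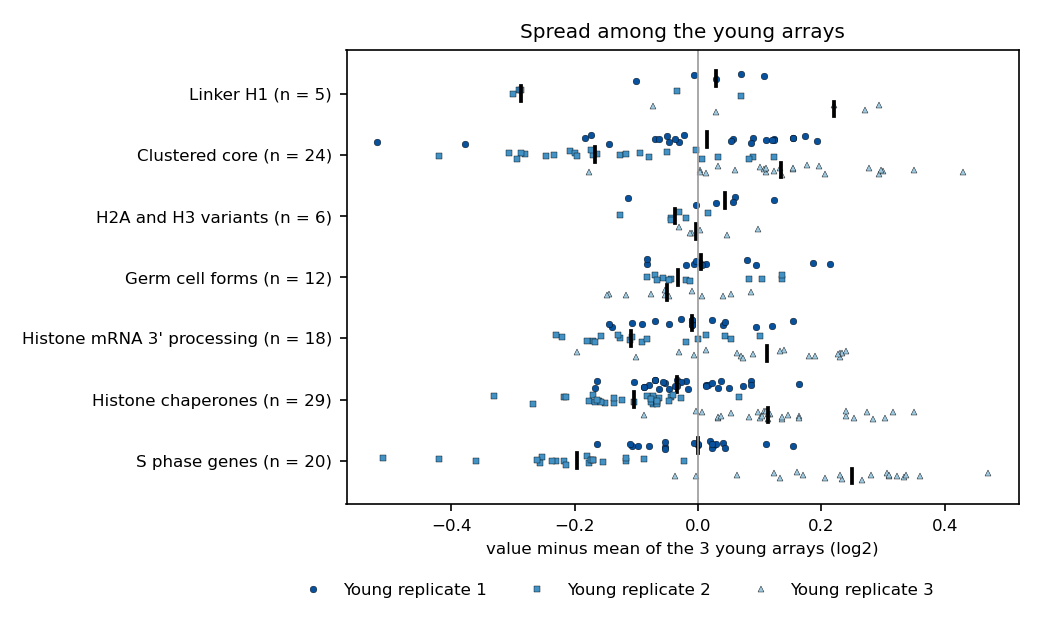
Value on each young array minus the mean of the 3 young arrays (x axis, log2) by group (y axis); points are probe sets and black bars are medians. Young replicate 2 lies to the left and young replicate 3 to the right for clustered core, linker and S phase genes, with little separation for the germ cell forms.

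Genes that serve the histone supply were given from 3 lists. For transcription and 3′ end processing of clustered histone mRNA, 18 of 19 listed genes had a probe set, of which 0 were called and 10 had an unadjusted p under 0.05; 14 were lower and 4 higher in mean (median -1.08). The 10 are 55.6%, beside 46.8% of all tested probe sets in either direction. Npat, the coactivator that cyclin E and its kinase switch on at clustered histone promoters, read 4.81, 4.44 and 5.73 in old and 6.29, 6.33 and 6.33 in young mice (-1.32 ± 0.35, limma adjusted p = 0.101). All 3 old values lay below all young ones, and old replicate 3 was lower alone too (limma adjusted p = 0.0382). Ncbp2, of the cap-binding complex, differed by -1.42 ± 0.37, Lsm11, of the U7 particle that trims histone mRNA, by 0.27 ± 0.19, and the scaffold Sympk, by its brightest probe set, by 0.15 ± 0.24. The Sympk value turned to -0.10 when arrays were centred. For histone chaperones and exchange factors, 29 of 32 listed genes had a probe set, with 0 called, 19 at an unadjusted p under 0.05 (65.5%), 27 lower and 2 higher (median -1.51). Cenpa, the centromere H3 variant kept on that list, differed by -1.72 ± 0.46 and its loading factor Mis18a by -1.51 ± 0.40, whereas the importin Ipo4 differed by 0.43 ± 0.26 and Oip5 by 0.06 ± 0.29, which was -0.20 on centred arrays. For S phase genes, 0 of 20 were called, 17 had an unadjusted p under 0.05 (85%) and 20 were lower (median -1.76), among them Gins2 (-2.05 ± 0.38) and Cdc6 (-1.15 ± 0.24). The 46.8% takes in probe sets of every brightness. Of all 4817 tested with a young mean above 7, 3542 had an unadjusted limma p under 0.05 and 4697 were lower (median -1.69). Most listed genes were that bright, though not all. By limma, 11 of 18, 25 of 29 and 18 of 20 genes of the 3 lists were called without old replicate 3, of which 1 chaperone gene was higher and the others were lower. Of all tested probe sets 82.4% were called then, 30.2% as lower. The differences without that array were -1.69 for Npat, -1.82 for Ncbp2, -1.95 for Mis18a, -2.26 for Cenpa, -2.46 for Gins2 and -1.29 for Cdc6. Of these genes, only Cenpa was above the background level on old replicates 1 and 2, and the others were under it on both. Set at that level, Npat was lower than the young mean by at least 0.03 and 0.11 on these arrays. The bounds were 0.14 and 0.23 for Cdc6, 0.33 and 0.41 for Mis18a, 1.23 and 1.31 for Ncbp2, and larger for Gins2.

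By position (GRCm38.p6), the median difference was -0.70 over the 16 core probe sets of the chromosome 13 cluster, with 13 lower, and -1.23 over its 4 linker probe sets. It was -1.36 over the 4 of the chromosome 3 cluster, with 4 lower, and 0.05 over the 3 of the chromosome 11 cluster, with 1 lower (H2aw). The 0.05 is the value of H2bu1-ps, which was above background on no array. Of all 23410 tested, 8912 were lower in mean. H4f16 on chromosome 6, outside the clusters, differed by -0.59. The 3 germ cell genes inside the chromosome 13 cluster had a median of 0.37, near the 0.35 of all tested, with a range of -0.38 (H2bc1) to 0.63 (H1f6). Without old replicate 3 the core medians were -1.03, -2.0 and -0.02 on chromosomes 13, 3 and 11, and with old replicate 3 as the only old array they were 0.19, 0.14 and 0.12.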

How the data were processed

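Expression was measured on 6 one-colour whole-transcript arrays, 3 old and 3 young. The deposited values are linear intensities (3.58 to 8502) made by the authors with RMA (as the submitters' processing notes name it), whose settings the sources used here do not give. They were taken to log2. Probe sets were named from the platform annotation, with symbols updated through RefSeq (GRCm38.p6), and 23410 of 28940 carried at least 1 gene (21789 had 1, 1621 had several). limma 3.58.1 in R 4.3.3 (lmFit, eBayes, two-sided) was fitted over all 23410 with Benjamini-Hochberg adjustment, threshold 0.05, and was tested on simulated data. Tables were made in Python 3.11.15 with pandas 2.3.3, numpy 2.4.6 and matplotlib 3.10.9.

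A bound ("at least") sets an old value under the receptor level of its array at that level and compares it with the young mean. Each bound holds for the deposited values only and depends on their scaling, as old replicates 1 and 2 have compressed values. Named genes were the brightest and the lowest-p pair of each class, some variants, and a lowest-p pair in each direction of each list. H2ac8, H2bc8 and H4c6 are marked as exceptions where they appear. Other genes outside this rule, such as H1f3, H2az2 and H2aj, were also named after their values were seen. Members and lists were chosen with earlier results of these data known. Replicate numbers are shared by the groups, but the labels give no source for a pairing. Over all tested probe sets the deviations of same-numbered old and young arrays correlated at 0.157, 0.15 and 0.279, each over a limit of 0.1. Old replicate 1 correlated with young replicate 2 at 0.153 and old replicate 2 with young replicate 1 at 0.141. These values therefore do not settle a pairing. The fits in the Results were unpaired, and the replicate number entered as a block only among the alternatives. Alternatives were the replicate block, a filter on dim probe sets, all probe sets, centring, quantile normalization, trended robust moderation, array weights, leaving out arrays and other receptor percentiles. Protein sequences were not used here.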

Additional observations from a re-analysis of the deposited data

How the results depend on the processing

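With the replicate number as a block, 0 of 47 members and 0 of 23410 probe sets were called by limma (smallest adjusted p 0.081), and the block changed no call. At an unadjusted p under 0.05 there were 21 of 47 members, beside 10385 of all 23410 tested. Without the block there were 14 members, beside 10966 of all tested. Centring, quantile normalization, trended robust moderation, testing all probe sets and the filter on dim probe sets also called 0 members. Array weights, whose estimation stopped before convergence, called 39 of 47 members, beside 19998 of all 23410 probe sets. They also called 13 of 18 processing, 26 of 29 chaperone and 18 of 20 S phase genes. Leaving out each array in turn called 0 to 37 of 47 members, beside 0 to 19285 of all 23410 probe sets (up to 82.4%). It called 0 to 11 of 18 processing, 0 to 25 of 29 chaperone and 0 to 18 of 20 S phase genes. Every call was made without old replicate 3. The medians ran from -1.85 to -0.79 for linker, -1.11 to -0.36 for clustered core, -2.57 to -1.23 for variant and 0.52 to 1.07 for germ cell probe sets. With old replicates 1 and 2 left out, 1638 probe sets, 2 members, 1 processing, 1 chaperone and 3 S phase genes were called, and the medians were -0.02 for linker, 0.19 for clustered core, -0.12 for variant and 0.28 for germ cell probe sets. The cause was not tested. With the 90th receptor percentile, 22 members were above background on old replicate 1; with the 99th, 1 was on old replicate 1 and 4 on old replicate 2. Signal over background limits old replicates 1 and 2, where 12 and 14 of 47 members were above the level.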

Other observations

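Probe sets assigned to several genes of the H2al1 family, X-linked H2A forms of spermatids, separated old replicate 1 from the other arrays. Over 12 probe sets, 10 of them with distinct values, the median was 7.02 on old replicate 1, with a range of 6.28 to 7.14 and 11 above that array's receptor level. It was 5.59 on old replicate 2 (4.35 to 5.81, with 0 above), 4.88 on old replicate 3, and the 3 young medians were 4.57, 4.74 and 4.91. The probe sets share their target genes and are not independent. Of the 12, 0 had all 3 old values below the young ones, beside 22.9% of all tested, and 1 had all 3 above, beside 36.1%.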
